A study of Mus musculus with 14 samples.

Results

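A set of 10 genes of the mucus layer was followed in the ileum mucosa of mice that lacked NCoR1 in the intestinal epithelium: Muc2, Fcgbp, Clca1, Zg16, Tff3, Spink4, Agr2, Muc13, Spdef and Atoh1. They were chosen by name as goblet cell mucus genes, not by a rule on their values, though earlier results of these data were known. They are 10 of the 54532 genes in the count table. All 10 passed the filter on low counts, as did 13846 genes in all. The scraped mucosa came from 7 WT and 7 IKO mice, 1 library per mouse. WT mice carried floxed NCoR1 alleles without Cre, and IKO mice carried the same alleles with Cre under the villin promoter. This promoter is active throughout the intestinal epithelium, goblet cells included, and not in the other cells of the mucosa. All 14 mice were adult males on a high fat diet (HFD) for 15 weeks, so neither a chow-fed group nor a Cre-only group was compared here. The labels call the cells intestinal epithelial cells, but scrapings also hold immune and stromal cells.

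Goblet cells are secretory cells of the intestinal epithelium that store mucin in granules and release it as a gel over the villi. Muc2 is the mucin that forms this gel, and Fcgbp, Clca1, Zg16 and Tff3 are secreted along with it. Agr2 helps Muc2 fold in the endoplasmic reticulum (ER), while Atoh1 commits progenitors to the secretory lineage and Spdef drives goblet cell maturation. Muc13 differs from the rest: it is a membrane-bound mucin of the apical surface, made by enterocytes as well as goblet cells. In bulk mucosa, a change in the number of goblet cells and a change in RNA per goblet cell cannot be told apart.

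Of the 10 genes, 1 passed an adjusted p of 0.05 (edgeR) as higher in IKO mice, 0 were lower and 9 were not called. The gene that rose was Muc13, which was 2.44-fold higher. Over all genes tested, 8.67% were called, 4.38% higher and 4.28% lower, so 1 call among 10 is about what the background gives. At an unadjusted p under 0.05 (edgeR) were 2 of the 10 genes and 4213 of all 13846 tested. The gel mucin Muc2 and its abundant partners Fcgbp, Clca1 and Zg16 had log2 fold changes between 0.04 and 0.20, with standard errors (SE) of 0.36 to 0.45. Spink4 had the next smallest adjusted p after Muc13, at 0.053. The median log2 fold change of the 10 genes was 0.18, against -0.09 over all genes tested. Of the 10, 9 were above 0, against 43.5% of all genes tested. Some of the 10 varied together across mice (Muc2 with Fcgbp, Pearson r = 0.97 with genotype means removed), so they are not independent values. The signs of several turned under another scaling, given below. In all 10 genes the values of WT and IKO mice overlapped. Over all genes tested, 3.10% did not overlap, so 0 without overlap among 10 is about what the background gives.

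**Figure D1:**
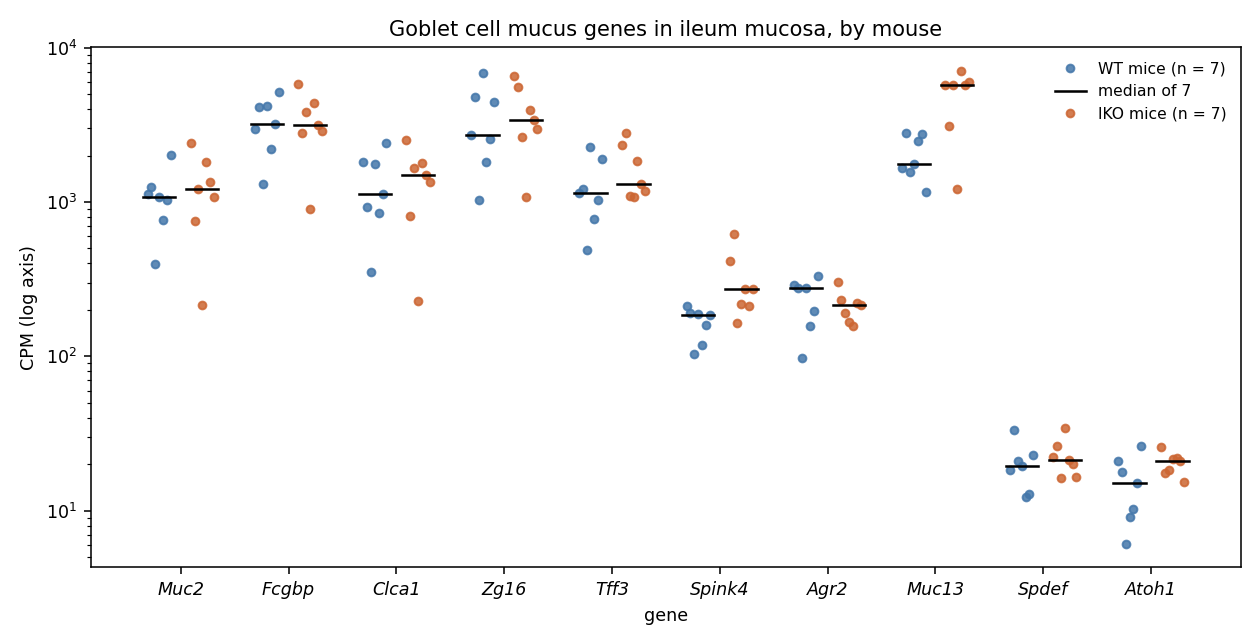
Each point is the level of a gene in 1 mouse, in CPM (counts scaled to library size) on a log axis, for 7 WT and 7 IKO mice, and each bar is the median of 7. Muc13 had medians of 1760 CPM in WT and 5748 CPM in IKO mice, while the medians of the secreted genes lay close together.

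Several libraries stood apart from the others. Depth was 14749669 to 21557468 counts per library. Mitochondrially encoded genes took 50.3% of counts in IKO 4 and 23.9% in WT 3, against 3.49% to 10.3% in the others. These were also the libraries with the least Muc2 in each genotype. WT 4 had 11427 CPM of 8 smooth muscle markers, against at most 75.4 CPM in the other WT mice and 838 CPM in IKO mice. Against the medians of the IKO mice, IKO 2 was low in long genes relative to short ones, by 0.74 on the log2 scale. Ncor1 itself checked the labels, with 106 to 195 CPM (median 130) in WT mice and 31.7 to 64.0 CPM (median 47.7) in IKO mice. The genotypes did not overlap for Ncor1, and it fell in IKO mice (log2 fold change -1.41, SE 0.18, edgeR adjusted p = 0.00051).

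Promoter sequence was at hand for 6 of the 10 genes, from RefSeq on build GRCm38.p6, and 3 are shown, those the results turn on. Muc2 and Fcgbp had the most similar levels across mice, and Muc13 was the gene that differed between genotypes. Each stretch is the 250 bases before the annotated start, all on the plus strand, written 5′ to 3′. Muc2 is from chr7:141690090-141690339, Fcgbp from chr7:28070986-28071235 and Muc13 from chr16:33793787-33794036, the first of its annotated starts. Capitals mark CAGCTG or CAGATG on either strand, a pair of the E-box variants that basic helix-loop-helix factors such as Atoh1 bind. Other E-box variants were not searched and stay in lower case.
Muc2: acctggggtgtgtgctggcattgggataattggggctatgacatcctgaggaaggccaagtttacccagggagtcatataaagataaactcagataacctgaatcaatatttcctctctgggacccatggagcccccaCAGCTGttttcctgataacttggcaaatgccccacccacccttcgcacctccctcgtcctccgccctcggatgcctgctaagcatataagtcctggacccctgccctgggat
Fcgbp: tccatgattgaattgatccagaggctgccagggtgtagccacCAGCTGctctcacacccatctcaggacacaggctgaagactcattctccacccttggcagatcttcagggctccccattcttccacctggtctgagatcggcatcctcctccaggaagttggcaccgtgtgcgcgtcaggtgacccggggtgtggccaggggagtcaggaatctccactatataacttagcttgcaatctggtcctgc
Muc13: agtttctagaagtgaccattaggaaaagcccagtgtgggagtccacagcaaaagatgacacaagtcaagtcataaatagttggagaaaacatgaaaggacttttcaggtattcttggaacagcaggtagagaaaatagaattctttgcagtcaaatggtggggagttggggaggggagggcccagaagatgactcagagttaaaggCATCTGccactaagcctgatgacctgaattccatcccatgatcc
The motifs CAGCTG and CAGATG were searched on both strands. CAGCTG was in the Muc2 window, 112 bases before the start, and in the Fcgbp window, 208 bases before it. CAGATG was in the Muc13 window shown, on the other strand, where it reads CATCTG, 44 bases before the start. The window of the second annotated start of Muc13, chr16:33794239-33794488, held neither motif. The windows of Agr2, Spdef and Atoh1 held neither of the motifs. Of 32851 promoter windows of this length, 13.0% held CAGCTG and 14.4% held CAGATG. A match of letters is a description only, and no binding was measured.

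The gel mucin and the secreted proteins that varied with it came first among the genes by role. Muc2 was at 395 to 2022 CPM (median 1081) in WT mice and at 214 to 2409 CPM (median 1221) in IKO mice. The lowest and the highest mouse were both IKO, so the WT range lay inside the IKO range. The log2 fold change was 0.20 (SE 0.42, edgeR adjusted p = 0.771), and the 95% confidence interval of the fold ran from 0.62 to 2.13. Fcgbp, a large IgG Fc-binding protein linked into the mucus gel, was at 1308 to 5150 CPM (median 3179) in WT mice. In IKO mice it was at 900 to 5782 CPM (median 3168). Its medians were nearly equal, and its log2 fold change was 0.04 (SE 0.36, edgeR adjusted p = 0.950, fold interval 0.61 to 1.75). Clca1, a secreted metalloprotease that processes Muc2, was at 353 to 2417 CPM (median 1125) in WT mice and at 230 to 2503 CPM (median 1502) in IKO mice. Its range in IKO mice also enclosed that in WT mice, with a log2 fold change of 0.09 (SE 0.45, edgeR adjusted p = 0.912, fold interval 0.55 to 2.06).

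Zg16 and Tff3 are smaller secreted partners of the gel. Zg16, a lectin that binds the cell wall of Gram-positive bacteria, was at 1035 to 6876 CPM (median 2713) in WT mice and at 1073 to 6534 CPM (median 3386) in IKO mice. The ranges nearly coincided, and the log2 fold change was 0.11 (SE 0.42, edgeR adjusted p = 0.884, fold interval 0.58 to 2.0). Tff3, a trefoil peptide that takes part in epithelial repair, was at 492 to 2278 CPM (median 1135) in WT mice. In IKO mice it was at 1075 to 2783 CPM (median 1317), and 2 of 7 lay above all WT mice. Its log2 fold change was 0.40 (SE 0.34, edgeR adjusted p = 0.439, fold interval 0.80 to 2.15). It was 0.23 without IKO 2, 0.26 without WT 3, 0.61 without WT 4 and 0.16 with the gene length trend removed. The summed level of the 6 secreted genes Muc2, Fcgbp, Clca1, Zg16, Tff3 and Spink4 was 3686 to 16372 CPM (median 9947) in WT mice. In IKO mice it was 3709 to 19971 CPM (median 10929), so the spread between mice of 1 genotype was far larger than the distance between the medians. All 10 genes together took 0.536% to 2.70% of counts in WT mice and 0.298% to 2.42% in IKO mice. The lowest shares were those of WT 3 and IKO 4, which also had the largest mitochondrial shares. Over counts of nuclear genes alone, the shares were 0.704% to 2.84% and 0.600% to 2.51%, and WT 3 and IKO 4 were still lowest in their genotypes.

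Spink4, a small protein of the Kazal protease inhibitor family secreted by goblet cells, was at 103 to 213 CPM (median 185) in WT mice. It was at 165 to 618 CPM (median 275) in IKO mice. In 5 of 7 IKO mice it was above every WT mouse, although IKO 3 and IKO 6 lay within the WT range. The log2 fold change was 0.91 (SE 0.28), with a fold interval of 1.25 to 2.84 and an edgeR adjusted p of 0.053. An exact two-sided permutation test of its log2 level, 7 against 7 mice, gave p = 0.0093, unadjusted for the number of genes. The highest mouse was IKO 2, the library low in long genes, and Spink4 is the shortest of the 10 genes at 477 bases. Without IKO 2 the log2 fold change was 0.65 (edgeR adjusted p = 0.094). With the gene length trend removed from each library it was 0.63 (edgeR adjusted p = 0.109).

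Agr2, the protein disulfide isomerase that Muc2 needs for folding, was at 97.1 to 331 CPM (median 275) in WT mice and at 156 to 302 CPM (median 215) in IKO mice. It was the 1 gene of the 10 with a log2 fold change below 0, at -0.13 (SE 0.25, edgeR adjusted p = 0.752, fold interval 0.63 to 1.32). In 6 of 7 IKO mice Agr2 was below the WT median. Leaving out 1 mouse at a time gave log2 fold changes from -0.26 (without WT 3) to -0.042 (without WT 7).

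Among the transcription factors, Atoh1 was at 6.12 to 26.2 CPM (median 15.2) in WT mice and at 15.4 to 25.7 CPM (median 20.9) in IKO mice. All 7 IKO mice were above the WT median, but none was above the highest WT mouse. The log2 fold change was 0.42 (SE 0.27, edgeR adjusted p = 0.296, fold interval 0.90 to 1.99). Spdef was at 12.2 to 33.3 CPM (median 19.5) in WT mice and at 16.3 to 34.4 CPM (median 21.3) in IKO mice. Its highest value was in IKO 4, the library with the least Muc2, and its log2 fold change was 0.16 (SE 0.23, edgeR adjusted p = 0.655, fold interval 0.80 to 1.57). Without IKO 4 it was 0.038. These were the genes with the fewest reads, 90 to 739 counts per library for Atoh1 and 234 to 652 for Spdef.

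Muc13, the membrane-bound mucin, was at 1164 to 2798 CPM (median 1760) in WT mice and at 1222 to 7053 CPM (median 5748) in IKO mice. In 6 of 7 IKO mice it was above every WT mouse. Of these, 5 lay between 5742 and 7053 CPM and IKO 2 was at 3111 CPM. The exception was IKO 4 at 1222 CPM, inside the WT range. The log2 fold change was 1.28 (SE 0.34, edgeR adjusted p = 0.033), with a fold interval of 1.48 to 4.02. An exact two-sided permutation test gave p = 0.0134. Leaving out IKO 4 gave a log2 fold change of 1.46 (edgeR adjusted p = 0.0059), and leaving out WT 3, WT 4 and IKO 4 together gave 1.35 (edgeR adjusted p = 0.032). The call was close to the threshold: it was lost on leaving out WT 1, WT 3, WT 4, WT 7, IKO 1, IKO 3, IKO 5 or IKO 7, with log2 fold changes from 1.17 to 1.25 and edgeR adjusted p from 0.052 to 0.077. Markers of enterocytes, which also make Muc13, were not called in 12 of 12 cases (0 at an unadjusted p under 0.05), with a median log2 fold change of 0.32. Their summed level was 27017 to 104499 CPM in WT mice and 51774 to 88998 CPM in IKO mice, and their part in the Muc13 difference was not tested. The 8 pan-epithelial genes such as Epcam had a median log2 fold change of 0.37, with 1 called higher (Elf3, also counted among the fate regulators) and 0 lower, and Muc13 scaled to them kept a log2 fold change of 0.88 (edgeR adjusted p = 0.0498).

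**Figure D2:**
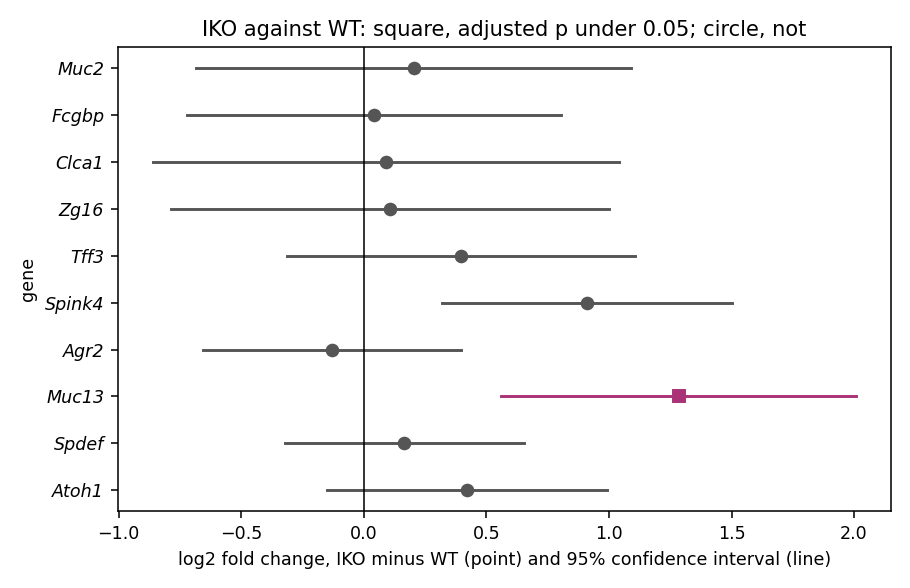
Points are log2 fold changes, IKO minus WT, and lines are 95% confidence intervals from edgeR over 7 WT and 7 IKO mice. The square is Muc13 at 1.28 (adjusted p = 0.033). Spink4 at 0.91 also has an interval above 0, but its adjusted p was 0.053.

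Compared per kilobase, the scale on which genes can be set side by side, the order of levels was much the same in both genotypes. In the deposited FPKM, Tff3 (median 2258) and Zg16 (median 2117) were highest in WT mice. They were also highest in IKO mice, at 2648 for Tff3 and 2670 for Zg16. Tff3 was above Zg16 in 5 of 7 WT mice and in 5 of 7 IKO mice, with overlapping ranges, so these neighbours were not separated. Muc13 came next, with a median FPKM of 565 in WT and 1876 in IKO mice. Spink4 followed with 376 and 584, then Fcgbp with 301 and 299, and Clca1 with 296 and 394. Fcgbp and Clca1 overlapped throughout, and only their medians changed places between the genotypes. By mouse, Fcgbp was above Clca1 in 3 of 7 WT mice, and Clca1 above Fcgbp in 5 of 7 IKO mice, so they were not separated. Agr2 (208 in WT, 169 in IKO) and Muc2 (148 in WT, 171 in IKO) also changed places, with Agr2 above Muc2 in 6 of 7 WT mice and Muc2 above Agr2 in 4 of 7 IKO mice. Atoh1 and Spdef lay far below, at medians of 7.12 to 9.79 FPKM, and were separated from the other genes in both genotypes without overlap.

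Since the levels of the secreted genes differed so much between mice, each gene was also set against Muc2 in the same library, as a log2 ratio of CPM. What made those levels differ between mice was not tested. The spread of Muc2 itself enters the ratio of every gene, and limma draws the SEs of single genes toward that common spread. For the 9 members its SEs were 0.54 to 0.61, also for Fcgbp, whose ratios had SDs of only 0.21 in WT and 0.33 in IKO mice (n = 7 each). The limma count therefore says little about genes that follow Muc2: 0 of 9 ratios were called (0 at an unadjusted p under 0.05), against 0.195% of ratios over all genes tested. Exact permutation tests, which use each ratio's own values, are given beside it. The Muc13 to Muc2 ratio was -0.80 to 1.98 (median 1.16) in WT mice and 1.26 to 2.51 (median 2.09) in IKO mice. All 7 IKO mice were above the WT median and 5 of 7 were above every WT mouse. The mean difference was 1.12, with an exact two-sided permutation p of 0.0070, unadjusted for the 9 ratios, and a limma adjusted p of 1.00. Leaving out 1 mouse at a time gave mean differences from 0.82 (without WT 7) to 1.29 (without WT 3) for Muc13. The 8 other ratios differed by -0.11 to 0.76, with Agr2 lowest and Spink4 highest, and exact permutation p from 0.194 to 0.898.

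The Tff3 to Muc2 ratio separated single mice rather than genotypes. In 11 of 14 mice it lay between -0.16 and 0.31, that is, Tff3 and Muc2 had nearly the same CPM. The others were IKO 4 at 2.33, IKO 2 at 1.88 and WT 4 at 1.08. In the same libraries the Zg16 to Muc2 ratio was 2.32, 2.88 and 2.67, against 1.10 to 1.94 in the other 11. The Spink4 to Muc2 ratio was 0.02 in IKO 4 and -0.30 in IKO 2, against -3.45 to -1.94 in the 11, but it was -2.52 in WT 4. Tff3 (493 bases), Spink4 (477 bases) and Zg16 (1257 bases) are short, and Muc2 (7127 bases) is long. The level of long genes relative to short ones was taken as a log2 deviation from the medians of the mouse's own genotype. It therefore does not compare WT with IKO mice. Among IKO mice it was lowest in IKO 2 (-0.74) and IKO 4 (-0.27). Among WT mice it was lowest in WT 4 (-0.203), with WT 2 nearly equal (-0.198). WT 2, however, had a Tff3 to Muc2 ratio of -0.045. Fcgbp, longer than Muc2 at 10497 bases, had a ratio to Muc2 of 1.24 to 2.07 in all 14 mice. The part of gene length in these ratios was not tested.

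**Figure D3:**
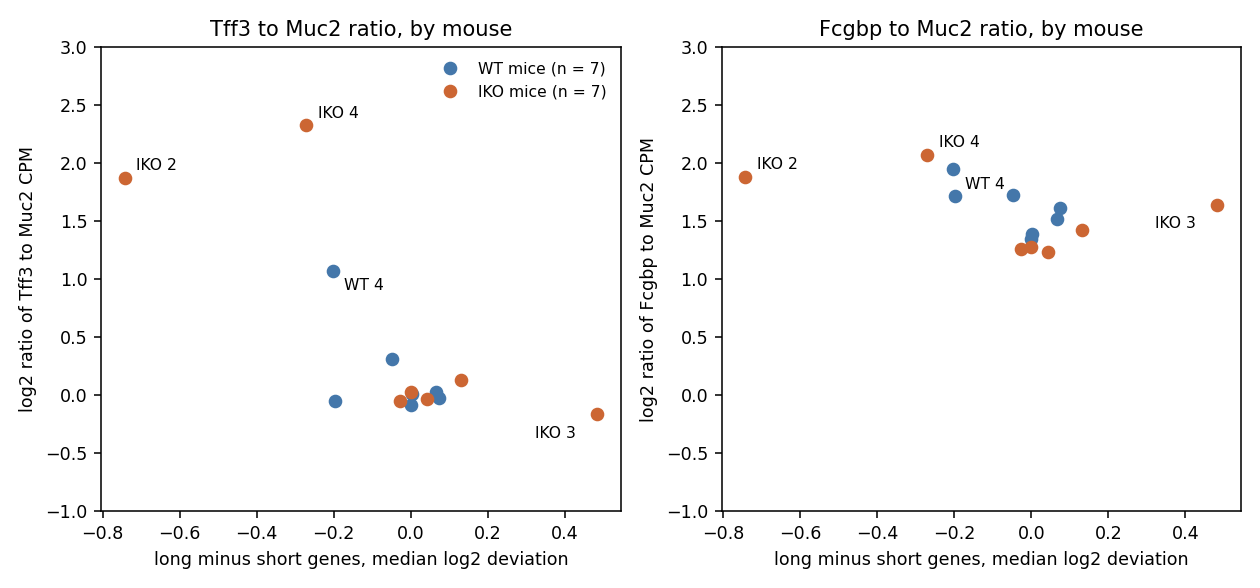
Each point is 1 mouse. The x axis is the median log2 deviation of the longest 20% of protein-coding genes minus that of the shortest 20%, and the y axes are log2 ratios to Muc2 CPM of Tff3 (left) and Fcgbp (right). Deviations are from the medians of the mouse's own genotype, so x values do not compare WT with IKO mice. IKO 4 (2.33), IKO 2 (1.88) and WT 4 (1.08) stand above the other 11 mice for Tff3, while Fcgbp ratios stay between 1.24 and 2.07.

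Across the 14 mice, with genotype means removed, levels most like those of Muc2 were those of Fcgbp (Pearson r = 0.97, Spearman rho = 0.92) and Clca1 (r = 0.95, rho = 0.84), ranked first and second of 11268 genes. Without IKO 4 and WT 3, the mice with the least Muc2, r was 0.89 for Fcgbp and 0.83 for Clca1. Nipal2 (r = 0.95), Txndc5 (0.94), Rce1 (0.93), Stard3nl (0.93), Kcnk6 (0.92) and Trpm5 (0.92) completed the first 8 genes. Being the highest of so many, these values carry no test. The remaining members were less like Muc2: Zg16 ranked 227 (r = 0.78), Muc13 736 (r = 0.66), Agr2 896 (r = 0.63), Tff3 1211 (r = 0.56), Atoh1 1488 (r = 0.51) and Spink4 2380 (r = 0.34). Spdef had r = -0.24. Without IKO 4 and WT 3, r fell to 0.40 for Zg16, 0.06 for Muc13, 0.44 for Agr2, 0.30 for Tff3 and 0.01 for Spink4, was 0.64 for Atoh1 and turned to 0.31 for Spdef, so most of these values rested on those mice. Among the short genes, r was 0.90 for Tff3 with Zg16 and 0.80 for Tff3 with Spink4. All values share library depth and composition within a mouse.

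Other genes of mucus production were read from 5 lists. Over all genes tested, 8.67% were called by edgeR, 4.38% higher and 4.28% lower, the shares to set beside the counts in these lists. Of 15 other mucins, 3 were tested and 0 were called by edgeR (0 at an unadjusted p under 0.05). Muc3, a membrane-bound mucin of the enterocyte brush border, was at 1113 to 2440 CPM in WT and 493 to 2847 CPM in IKO mice (log2 fold change 0.06, SE 0.34, edgeR adjusted p = 0.919). Muc3a, annotated separately, had a log2 fold change of 0.40 (SE 0.27, edgeR adjusted p = 0.321). Muc3 and Muc3a are similar genes, as are those of the Clca family, and how the counting divided any reads that they share was not examined. Of 29 genes listed as other goblet cell products or as relatives of them, 23 were tested, 0 rose and 1 fell. The gene that fell was Clca3a1, a relative of Clca1, at 4.78 to 47.3 CPM in WT and 1.20 to 5.45 CPM in IKO mice (log2 fold change -2.05, SE 0.54, edgeR adjusted p = 0.033). Clca3a1 had a log2 fold change of -1.26 without WT 2, and it lost its call without IKO 1, IKO 2, IKO 4 or IKO 5 (log2 fold change -2.02 to -1.91, edgeR adjusted p 0.057 to 0.076). The most abundant genes of this list, Clca4b (log2 fold change 0.80, edgeR adjusted p = 0.390) and Clca4a (0.64, edgeR adjusted p = 0.502), did not pass the test. Which cells of the mucosa made Clca3a1, Clca4a and Clca4b was not examined, so their values cannot be read as goblet cell values. The median of the 23 log2 fold changes was 0.20.

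Among 21 regulators of goblet cell fate, 20 were tested, 1 rose and 0 fell, with a median log2 fold change of 0.06. That count is not above the share called over all genes tested (8.67%). The gene that rose was Elf3, an epithelial transcription factor, at 177 to 352 CPM in WT and 282 to 510 CPM in IKO mice (log2 fold change 0.79, SE 0.20, edgeR adjusted p = 0.028). It lost its call without WT 3, WT 4 and IKO 4 together (log2 fold change 0.79, edgeR adjusted p = 0.086), and without WT 1, WT 4, WT 7, IKO 2 or IKO 5 alone (0.71 to 0.75, edgeR adjusted p 0.052 to 0.063). Klf4, a factor of terminal goblet cell differentiation, had a log2 fold change of 0.52 (SE 0.26, edgeR adjusted p = 0.187). A further 38 genes of glycosylation and its supply were listed for the O-linked sugars of mucins, though not all are specific to them. Of these, 34 were tested, 1 rose and 2 fell, about the share called over all genes tested. B3gnt7, which extends sugar chains with N-acetylglucosamine, rose from a median of 11.1 to 27.6 CPM (log2 fold change 1.18, SE 0.27, edgeR adjusted p = 0.019). St3gal1, which adds sialic acid to the core sugars, fell from 10.1 to 21.4 CPM in WT mice to 3.31 to 6.24 CPM in IKO mice, with no overlap. Its log2 fold change was -1.65 (SE 0.21, edgeR adjusted p = 0.00040), and its call held under all 27 alternatives tried. Fut2, the fucosyltransferase of secreted blood group sugars, was low in both genotypes and fell (log2 fold change -1.13, SE 0.32, edgeR adjusted p = 0.042). Its call held on leaving out WT 3, WT 5 or IKO 3 and was lost on leaving out any other single mouse (log2 fold change -1.20 to -0.99, edgeR adjusted p 0.052 to 0.088).

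All 43 genes of the ER machinery that folds and exports secreted proteins were tested, and 6 rose and 0 fell. Over all genes tested, 4.38% were called higher and 4.28% lower. The median log2 fold change of the 43 was 0.29. Sec61g and Sec61b, subunits of the channel through which new proteins enter the ER, rose by 1.08 (SE 0.22, edgeR adjusted p = 0.0099) and 0.86 (SE 0.21, edgeR adjusted p = 0.027) on the log2 scale. For Sec61g every IKO mouse was above every WT mouse. Herpud1, a part of ER-associated degradation, rose by 1.07 (edgeR adjusted p = 0.023), and the chaperone cofactor Sdf2l1 by 0.92 (edgeR adjusted p = 0.028). Manf and Creld2, induced by ER stress, rose by 0.79 (edgeR adjusted p = 0.022) and 0.72 (edgeR adjusted p = 0.0495). When libraries were scaled to the 8 pan-epithelial genes, 0 of the 43 were called higher and 2 lower, and the median of all genes tested moved from -0.09 to -0.41. The log2 fold changes of these 6 genes stayed above 0 under that scaling. Without WT 3, WT 4 and IKO 4, 3 of the 43 were called, as were 3 without WT 7 and 2 without IKO 1 or IKO 5. Sec61g kept its call whichever single mouse was left out, Sec61b lost it without IKO 1 (0.85, edgeR adjusted p = 0.054), Herpud1, Manf and Sdf2l1 lost it for 2 or 3 mice each (among WT 7, IKO 1 and IKO 5), and Creld2 lost it for 11 of the 14 mice (0.63 to 0.75, edgeR adjusted p 0.059 to 0.105). Every secretory cell and plasma cell uses this machinery: the 7 B and plasma cell markers summed to 204 to 807 CPM in WT and 231 to 602 CPM in IKO mice, and 0 of them were called by edgeR (3 at an unadjusted p under 0.05).

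**Figure D4:**
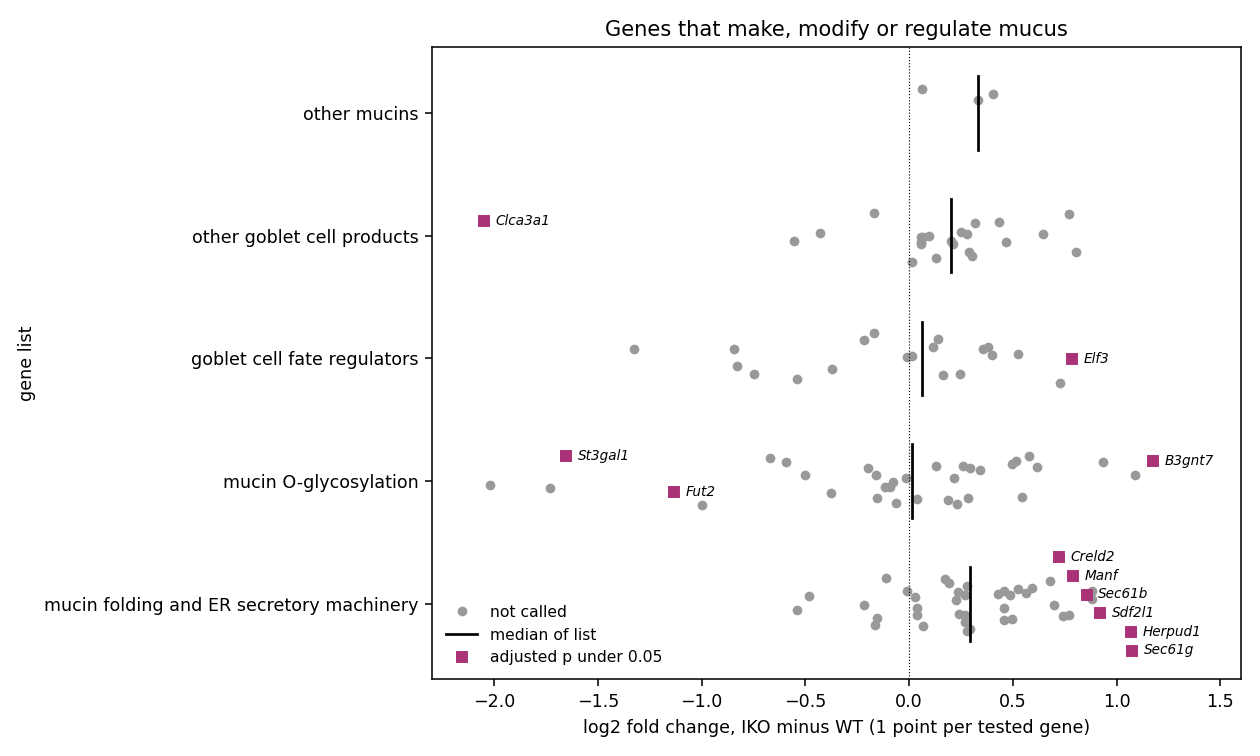
Each point is the log2 fold change, IKO minus WT, of 1 tested gene in a list of mucus-related genes, and each bar is the median of its list. Squares are genes with an adjusted p under 0.05. The 6 called genes of the ER machinery lie between 0.72 and 1.08, and St3gal1 is at -1.65.

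Markers of the other cell types in the mucosa gave 1 call among the lists examined, Avil of the tuft cells, which was lower in IKO mice (log2 fold change -1.17, edgeR adjusted p = 0.041). Paneth cells, which also descend from Atoh1-positive progenitors, had 0 of 10 markers called (0 at an unadjusted p under 0.05) and a median log2 fold change of 0.29. Of enteroendocrine markers, 0 of 9 tested were called by edgeR (1 at an unadjusted p under 0.05), with a median of -0.16. Smooth muscle markers had a median of -3.09 with 0 of 8 called (2 at an unadjusted p under 0.05), and WT 4 held nearly all of that signal. Fibroblast markers had a median of -2.0 with 0 of 5 called (4 at an unadjusted p under 0.05), endothelial markers -0.71 with 0 of 5 (2) and stem cell markers -0.59 with 0 of 6 (3). The summed fibroblast level was also highest in WT 4, at 354 CPM, against a WT median of 28.7 CPM. In IKO mice that sum was 8.32 to 44.7 CPM (median 18.8). The 6 tested tuft cell markers had a median of -0.80, none above 0, and 3 were at an unadjusted p under 0.05. Medians were -0.45 for 5 myeloid markers (0 called, 1 unadjusted), -0.18 for 6 T cell markers (0 called, 3 unadjusted), -0.56 for the B and plasma cell markers and -0.06 for 7 markers of dividing cells (0 called, 2 unadjusted). Over all 13846 genes tested, 4213 were at an unadjusted p under 0.05 (edgeR), the share to set beside these unadjusted counts. The share called over all genes tested was 8.67%. The part of these cell types in the values of the mucus genes was not tested. Without WT 4, the log2 fold changes of Muc2 and Zg16 were 0.20 and 0.37, and neither was called.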

How the data were processed

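RNA-seq of ileum mucosa from 7 WT and 7 IKO mice was used. The authors aligned reads with HISAT2 2.0.5 to mm10 and counted them with featureCounts 1.5.0-p3, per the labels. The deposited counts are raw whole numbers per gene. The deposited FPKM are counts per kilobase scaled by DESeq2 size factors, as checked on the values. Strandedness, annotation release and filters are not given in the sources used here.

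Counts were filtered with filterByExpr, normalized by TMM and compared with edgeR 4.0.16 (quasi-likelihood, genotype only) in R 4.3.3, with Benjamini-Hochberg adjustment over 13846 genes and a threshold of 0.05. The log2 levels add a prior count of 2. Ratios to Muc2 were compared with limma 3.58.1. Permutation tests enumerate all divisions into 7 and 7, whose smallest p is 0.000583. Samples are separate mice. In simulated counts of this comparison over 13635 genes, 21.6% of 97 genes changed 2-fold and 81.5% of 92 changed 4-fold were called. The simulation called 101 genes in all, against 1200 in the data, and held no library set apart like IKO 4. Its rates therefore need not hold for the data.

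The members, lists and tests were chosen with earlier results of these data known. Named genes are the 10 members, all list genes with an adjusted p under 0.05 (for lists with fewer than 2, also the 2 most abundant), Ncor1, and the 8 genes most like Muc2 (mean log2 CPM of at least 1). Avil and Epcam, outside this rule, were named after their values were seen. St6galnac2, on more than 1 row, was left out. Alternatives were DESeq2 1.42.0, other scalings and filters, limma on log2 FPKM with a pseudocount, voom with quality weights, a replicate block, and libraries left out. A fit with the gene length trend removed was added after the data were seen. The sources used here do not say that sample numbers pair the mice, and the main test did not treat them as pairs.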

Additional observations from a re-analysis of the deposited data

Results flagged for a closer look

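Within the 7 mice of 1 genotype, 6 of 50 groups examined, over 25 measures, had a lowest or highest mouse set apart from the rest by more of the whole range than the Dixon test allows for 7 values. About 2.5 would be flagged by chance, at 1 in 20. For Fcgbp, IKO 4 was below the other IKO mice, with a gap of 0.610 of the range. The Tff3 to Muc2 ratio of WT 4 was above the other WT mice, with a gap of 0.655. The Atoh1 to Muc2 ratio of IKO 4, at -3.30 against -5.41 in the nearest mouse, had a gap of 0.652. The share of mitochondrially encoded counts was set apart in WT 3 (gap 0.676) and in IKO 4 (gap 0.944), and smooth muscle markers were set apart in WT 4 (gap 0.994).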

How the results depend on the processing

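Muc13 stayed higher in IKO mice under all 27 alternatives (log2 fold change 0.88 to 1.46, adjusted p 0.0019 to 0.143) but lost its call in 13. Its log2 fold change was 1.32 with no filter on low counts (edgeR adjusted p = 0.083) and 1.21 by limma on log2(FPKM + 1), with or without a filter, and on log2(FPKM + 0.1) (adjusted p = 0.055, 0.143 and 0.055). Spink4 was called in 5 of 27, at 0.95 by DESeq2 (adjusted p = 0.014), 0.94 with RLE size factors (edgeR adjusted p = 0.048) and 0.74 by limma-voom with quality weights (adjusted p = 0.046), and without IKO 3 (1.00) or IKO 6 (0.99). Leaving out 1 mouse at a time gave 1.17 to 1.46 for Muc13 and 0.65 to 1.00 for Spink4, and turned the sign of small values, with ranges of -0.031 to 0.40 for Muc2, -0.14 to 0.21 for Fcgbp, -0.11 to 0.28 for Clca1, -0.083 to 0.37 for Zg16 and -0.12 to 0.23 for Muc3. Scaling to the pan-epithelial genes, against which the median of all genes was -0.41, turned Muc2 to -0.26, Fcgbp to -0.39, Clca1 to -0.37, Zg16 to -0.29, Spdef to -0.063 and Muc3 to -0.34. Other sign changes were Fcgbp at -0.028 with at least 10 counts in every sample, Zg16 at -0.041 with the length trend removed, Agr2 at 0.035 by voom and Muc3 at -0.035, -0.036 and -0.035 by limma on FPKM at the 3 settings. Without a sign change, pan-epithelial scaling moved Tff3 to 0.023, Atoh1 to 0.088 and Agr2 to -0.46, and leaving out 1 mouse gave 0.23 to 0.61 for Tff3, 0.038 (without IKO 4) to 0.34 (without WT 2) for Spdef, -0.26 to -0.042 for Agr2 and 0.29 to 0.59 for Atoh1. None of these genes was called under any alternative. The cause of these changes was not tested.

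Numbers are shared between genotypes, and the sources used here do not say that they pair mice. Of 7 same-numbered pairs, 1 correlated above 0.1 (r -0.31 to 0.23). This cannot decide the question, since pairs with different numbers were not compared. With the replicate block the count of genes called was 362, Muc13 was at 1.19 (edgeR adjusted p = 0.117), Muc3 at -0.027, and members, other goblet cell products and fate regulators had 0 calls each, O-glycosylation 1 and ER machinery 1.

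The count of genes called was 1200, and 2571 by DESeq2, 2562 with pan-epithelial scaling, 508 with no filter, 614 by limma on FPKM with no filter, 1889 by voom, 433 without WT 3, WT 4 and IKO 4, and 515 (without IKO 5) to 1371 (without WT 2) leaving out 1 mouse. The share of calls that were higher was 50.6%, and 6.71% with pan-epithelial scaling, 68.1% with no filter, 68.3%, 69.0% and 73.9% by limma on FPKM with pseudocounts of 1 and 0.1 and with no filter, 62.4% with the block, 63.7% without the 3 libraries and 63.2% with the length trend removed. Calls among members were 2 by DESeq2, RLE and voom, 0 with no filter and at the 3 FPKM settings, and 0 to 2 leaving out 1 mouse. Other goblet cell products had 0 calls with no filter and at the FPKM settings, 2 by voom, and 0 to 1 leaving out 1 mouse. Fate regulators had 4 by DESeq2, 2 with RLE, 2 without mitochondrial genes, 5 with pan-epithelial scaling (0 higher and 5 lower, Elf3 not among them), 3 with at least 10 counts in every sample, 3, 2 and 2 at the FPKM settings, 5 by voom, 0 without the 3 libraries, 2 with the length trend removed and 0 to 2 leaving out 1 mouse. O-glycosylation had 6 by DESeq2, 5 with pan-epithelial scaling (1 higher, 4 lower) and 1 by limma on FPKM with no filter. ER machinery had 2, both lower, with pan-epithelial scaling, 1 by limma on FPKM with no filter, 3 without the 3 libraries and 2 (without IKO 1 or IKO 5) to 7 (without IKO 4) leaving out 1 mouse. Ratios to Muc2 had 0 limma calls under the alternatives, which says nothing of stability, since SEs there follow the spread of Muc2.

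In simulated counts of this comparison over 13635 genes, 21.6% of 97 genes set at a 2-fold change were called. With 101 calls in all, against 1200 in the data, this rate need not hold for the data. The mucus genes were not simulated apart. The fewest reads of a member in a library were 90 counts, for Atoh1.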
